A study of Mus musculus with 9 samples.

Results

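Neighbouring genes of mouse chromosome 13 that encode clade B serpins, *Serpinb1a*, *Serpinb6b*, *Serpinb9* and *Serpinb6a*, were examined in hearts of embryos that carried 0, 1 or 2 copies of a mutant *Ctcf* allele. They are 4 of 24571 gene symbols used. The set was chosen by measured values in these same libraries, because the levels of *Serpinb9* and *Serpinb6b* moved in opposite directions with the number of mutant alleles, so the changes of that pair are given as a description without a test. *Serpinb6a* and *Serpinb1a* were included for their position, and the rule gave them no direction.

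The hearts came from C57BL/6N embryos at stage E18.5, with 3 libraries each from wild-type, heterozygous and homozygous embryos. The mutant allele, CTCF-R567W, is an amino-acid substitution made by CRISPR/Cas9 editing of the germline, so all cells of a mutant embryo carried it and no cell type was targeted. CTCF is a DNA-binding zinc-finger factor that, with cohesin, anchors chromatin loops. Whole hearts were sequenced after capture of poly-A RNA, and the labels give neither litter nor sex. Nothing states that libraries of a group came from separate litters, and p-values measure the spread between these 9 libraries. Values are TPM, an abundance per transcript length that sums to nearly the same total in each library, so levels of different genes can be compared. TPM keeps no read number, and the depth behind each value is unknown.

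Serpins are protease inhibitors. A protease that cuts the exposed loop of a serpin becomes locked to it, and both are inactivated. Clade B members mostly lack a signal peptide and act inside the cell, where they protect it from its own proteases or from those delivered by other cells. In the mouse they lie in a cluster on chromosome 13 and another on chromosome 1. *Serpinb9* encodes an inhibitor of granzyme B, the protease that cytotoxic lymphocytes use to kill target cells, and is known from lymphocytes and dendritic cells. *Serpinb1a* encodes an inhibitor of the neutrophil proteases elastase, proteinase 3 and cathepsin G. *Serpinb6a* encodes a broadly expressed inhibitor of cathepsin G and trypsin-like proteases, and *Serpinb6b* is a close relative of it.

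*Serpinb1a* (ENSMUSG00000044734.16) spans chr13:32842092-32851185 on the minus strand of GRCm38 (mm10) in the GENCODE M21 annotation. *Serpinb6b* (ENSMUSG00000042842.11) spans chr13:32965209-32979067 on the plus strand, 114 kb from *Serpinb1a*. *Serpinb9* (ENSMUSG00000045827.10) spans chr13:33003250-33017957 on the same strand and begins 24.2 kb after the end of *Serpinb6b*. *Serpinb6a* (ENSMUSG00000060147.15) spans chr13:33917918-34002794 on the minus strand, 900 kb beyond *Serpinb9*. All 4 genes are protein-coding, with coding lengths between 1125 and 1200 bases. The pair that moved in opposite directions were therefore the 2 closest neighbours of the 4, and they lie on the same strand.

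Relatedness followed the gene names rather than the direction of change. The coding sequences of *Serpinb6a* and *Serpinb6b* were 86.2% identical over the aligned bases, whereas *Serpinb6b* and *Serpinb9* were 66.8% identical. *Serpinb1a* was the most distant of the 4, with 56.9% to 59.0% identity to the others. Near copies can share reads, so the share of 31-base words of a gene found in transcripts of any further gene was counted. It was 6.83% for *Serpinb6b*, 4.94% for *Serpinb9* and 10.2% for *Serpinb1a*. For *Serpinb6a* it was 29.0%, with the largest part (13.1%) shared with *Nqo2*, a quinone reductase gene that lies within the span of *Serpinb6a* on the opposite strand. Use of strand in the authors' counting is not given in the sources used here. Without it, reads from sequence that *Serpinb6a*, *Nqo2* and the antisense transcript 1110046J04Rik share on opposite strands cannot be told apart. Only the words of *Serpinb6a* outside that 29.0% are found in no further gene.

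The 250 bases before the annotated starts of *Serpinb6b* and *Serpinb9*, from RefSeq on GRCm38.p6, are shown because these genes moved in opposite directions in a mutant of a DNA-binding protein. RefSeq windows were matched for 3 of the 4 genes, and *Serpinb1a* was not among them. RefSeq and GENCODE place the starts differently. The RefSeq start of *Serpinb6b*, chr13:32965261, and that of *Serpinb9*, chr13:33004541, both lie inside the GENCODE spans given above, so the end of the *Serpinb6b* window and the whole *Serpinb9* window fall within those spans. Positions are counted from the RefSeq start, with -1 as the base before it. Both sequences read 5′ to 3′ on the plus strand, with a motif match in capitals.

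Serpinb6b, chr13:32965011-32965260: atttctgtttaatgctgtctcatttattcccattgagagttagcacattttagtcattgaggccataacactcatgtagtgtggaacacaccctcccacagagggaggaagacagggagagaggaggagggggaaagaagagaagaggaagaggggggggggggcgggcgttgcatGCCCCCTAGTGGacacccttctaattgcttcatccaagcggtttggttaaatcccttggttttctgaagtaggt

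Serpinb9, chr13:33004291-33004540: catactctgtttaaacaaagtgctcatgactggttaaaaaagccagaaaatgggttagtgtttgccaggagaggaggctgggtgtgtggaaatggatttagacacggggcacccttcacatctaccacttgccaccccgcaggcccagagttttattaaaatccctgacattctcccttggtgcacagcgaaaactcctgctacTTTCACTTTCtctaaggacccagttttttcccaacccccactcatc

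The capitals in the *Serpinb6b* window are a match to a core of the CTCF motif, CCANNAGNNGGC, which was found on the opposite strand at positions -74 to -63. This core occurs on either strand in 2.07% of the 32851 promoter windows of the same table. The capitals in the *Serpinb9* window match the interferon-stimulated element GAAANNGAAA on the opposite strand at positions -46 to -37, and 2.98% of windows hold that element. *Serpinb6a* has 2 annotated starts, and the window of the distal one (chr13:34002795-34003044) holds the interferon-stimulated element at positions -84 to -75, while the other (chr13:33936084-33936333) holds neither motif. The TATA box TATAAA, present in 12.4% of windows, was found in none of these 4 windows. These 3 motifs were searched on both strands, were chosen after the sequences had been seen and did not overlap one another in these windows. A match is a likeness of letters, and binding was not measured here. The paper assigns the mutated residue to the last zinc finger, among those for an upstream CTCF motif rather than the core. That upstream motif was not searched.

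*Serpinb9* was higher with each mutant allele, and no library of a genotype overlapped the next. Its level was 3.13, 3.28 and 4.43 TPM among wild-type hearts, 9.45, 8.38 and 9.98 TPM among heterozygous and 27.62, 26.6 and 20.51 TPM among homozygous. The means were 3.61 ± 0.711 TPM (SD, n = 3), 9.27 ± 0.815 TPM (SD, n = 3) and 24.9 ± 3.84 TPM (SD, n = 3). The heterozygous mean was 2.57 times the wild-type mean and the homozygous mean 6.89 times. The step from heterozygous to homozygous was 2.69-fold, close to the first step in size. On the log2(TPM + 1) scale, the homozygous change from wild type was 2.49 (SE 0.16), made up of 1.16 between wild type and heterozygous and 1.33 between heterozygous and homozygous. The heterozygous mean lay below the arithmetic midpoint of the outer genotypes (14.3 TPM) and near their geometric midpoint (9.49 TPM), and each heterozygous library was below the arithmetic midpoint.

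*Serpinb6b* showed the opposite order, again without overlap between genotypes. Wild-type hearts held 15.73, 12.94 and 14.91 TPM, heterozygous hearts 5.28, 5.49 and 6.5 TPM, and homozygous hearts 0.69, 0.44 and 0.87 TPM. The means were 14.5 ± 1.43 TPM (SD, n = 3), 5.76 ± 0.652 TPM (SD, n = 3) and 0.667 ± 0.216 TPM (SD, n = 3). The transcript was thus at 39.6% of the wild-type level in heterozygous hearts and at 4.59% in homozygous hearts. The steps were unequal, at 2.52-fold from wild type to heterozygous and 8.64-fold from heterozygous to homozygous. On the log2(TPM + 1) scale, which understates changes of genes at such low levels, the homozygous change from wild type was -3.22 (SE 0.17), with -1.20 in the first step and -2.02 in the second. The heterozygous mean lay between the geometric midpoint (3.11 TPM) and the arithmetic midpoint (7.60 TPM) of the outer genotypes.

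**Figure D1:**
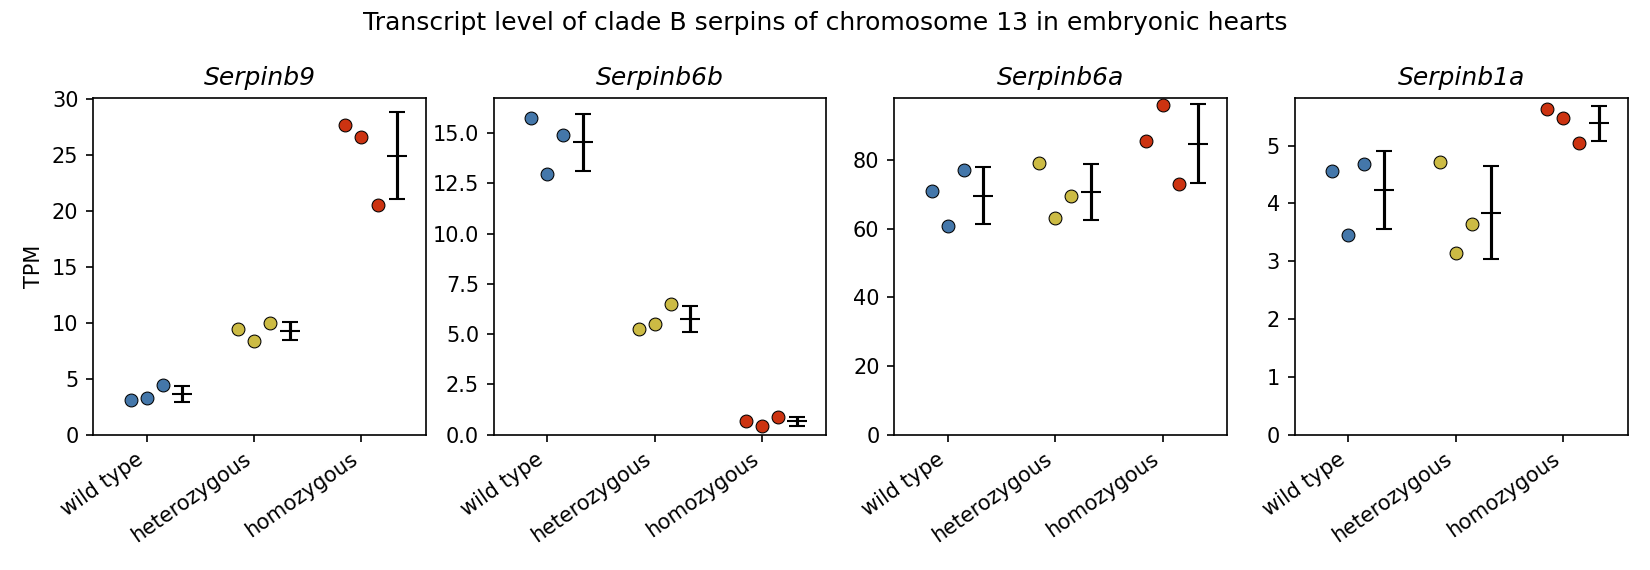
TPM of *Serpinb9*, *Serpinb6b*, *Serpinb6a* and *Serpinb1a* in each of the 9 libraries (points) by *Ctcf* genotype, with the group mean and SD as bars and a linear axis from 0 in each panel. *Serpinb9* ran from 3.13 to 27.62 TPM and *Serpinb6b* from 15.73 down to 0.44 TPM without overlap between genotypes, while the *Serpinb6a* groups overlapped.

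*Serpinb6a* was the most abundant of the 4 genes in every library. It stood at 70.96, 60.64 and 77.0 TPM in wild-type hearts, at 79.15, 63.09 and 69.46 TPM in heterozygous hearts and at 85.49, 95.81 and 72.92 TPM in homozygous hearts. The genotypes overlapped, with means of 69.5 ± 8.27 TPM (SD, n = 3), 70.6 ± 8.09 TPM (SD, n = 3) and 84.7 ± 11.5 TPM (SD, n = 3). In the limma fit across all genes the homozygous minus wild-type log2 change was 0.28 (SE 0.14, adjusted p = 0.233) and did not pass the threshold of 0.05. It passed in 1 of the alternative settings, in which libraries were weighted by their spread (limma arrayWeights, 0.43, adjusted p = 0.0224). That setting called 5068 of the 13682 tested genes, 4811 of them higher, so the pass does not set *Serpinb6a* apart. Over the alternatives the adjusted p in limma ran from 0.0224 to 0.903. Homozygous minus heterozygous was 0.26 (limma adjusted p = 0.758) and heterozygous minus wild type was 0.02 (limma adjusted p = 0.964). The last value turned negative under 6 of 21 alternatives, so no direction is given for it.

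*Serpinb1a* was a low-level transcript in all genotypes. It stood at 4.56, 3.46 and 4.68 TPM in wild-type hearts, at 4.72, 3.14 and 3.65 TPM in heterozygous hearts and at 5.63, 5.48 and 5.04 TPM in homozygous hearts. The 3 homozygous values were above all 6 others, which overlapped between wild type and heterozygous. The means were 4.23 ± 0.672 TPM (SD, n = 3), 3.84 ± 0.806 TPM (SD, n = 3) and 5.38 ± 0.307 TPM (SD, n = 3). Its log2 change was 0.29 (SE 0.18, adjusted p = 0.301 in limma) for homozygous minus wild type, 0.41 (limma adjusted p = 0.698) for homozygous minus heterozygous and -0.12 (limma adjusted p = 0.805) for heterozygous minus wild type, and none passed. The first of these became -0.011 after quantile normalization.

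The median gene was itself displaced between genotypes, by 0.23 for homozygous minus wild type, 0.08 for homozygous minus heterozygous and 0.15 for heterozygous minus wild type on the log2(TPM + 1) scale. Relative to that median the homozygous minus wild-type change was 2.26 for *Serpinb9* and -3.46 for *Serpinb6b*. It was 0.05 for *Serpinb6a* and 0.06 for *Serpinb1a*, so both of these moved with the bulk of transcripts to within their standard errors. Heterozygous minus wild type was 1.02 for *Serpinb9* and -1.35 for *Serpinb6b* on the same relative scale, against -0.13 for *Serpinb6a* and -0.27 for *Serpinb1a*.

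Among the 13682 genes tested, *Serpinb9* had the 5th highest and *Serpinb6b* the 4th lowest log2 change of homozygous minus wild type. In that comparison 0.336% of all tested genes were called at an adjusted p under 0.05 in limma and 24.7% had groups without overlap, against 2 and 3 of the 4 serpins. For homozygous minus heterozygous the background was 0.0439% called and 15.9% without overlap, against 2 and 3 of the 4. For heterozygous minus wild type it was 0.0146% called and 13.8% without overlap, against 0 and 2 of the 4. *Serpinb9* and *Serpinb6b* were both called in all 21 alternatives for homozygous minus wild type. For homozygous minus heterozygous the count of 2 fell to *Serpinb6b* alone in 10 of 21 alternatives, among them those without wild-type replicate 1 or 2, any heterozygous replicate, or homozygous replicate 1 or 2, and to 0 in 2 (the 2 groups alone, and *Xist* as covariate). For heterozygous minus wild type at least 1 of the pair was called in 5 of 21 alternatives, among them the one without wild-type replicate 3. The serpin counts, and the calls of the pair under the alternatives, rest on values that the choice of genes used, and nothing is read from them. The 3 comparisons share libraries and are not independent of one another. A stepwise order without any overlap between the 3 genotypes was found upward in 230 tested genes (1.68%) and downward in 29 (0.212%).

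The order of the 4 transcripts differed between genotypes. In wild-type hearts it was *Serpinb6a*, *Serpinb6b*, then *Serpinb1a* and *Serpinb9*, whose library values overlapped. In heterozygous hearts *Serpinb9* stood second, above *Serpinb6b* and *Serpinb1a*, and no neighbours in that order overlapped. In homozygous hearts the order was *Serpinb6a*, *Serpinb9*, *Serpinb1a* and *Serpinb6b*, again without overlap. Ranked among all tested genes by group mean, *Serpinb6b* went from the 59.03 percentile in wild type to 30.21 in heterozygous and 0.943 in homozygous hearts. The ranking leaves out genes that averaged under 1 TPM across all libraries. The homozygous mean of *Serpinb6b* (0.667 TPM) was itself under that limit, so its place near the bottom follows largely from the filter. Its place among all symbols used is not given. *Serpinb9* went from the 23.8 percentile to 41.7 and 69.2, and *Serpinb6a* stayed between 89.8 and 91.7.

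The ratio of *Serpinb9* to *Serpinb6b* is taken within a library, so a common scale factor cancels. It was 0.199, 0.253 and 0.297 in wild-type hearts, 1.79, 1.53 and 1.54 in heterozygous hearts and 40.03, 60.5 and 23.6 in homozygous hearts. *Serpinb6b* was the more abundant transcript in each wild-type library and *Serpinb9* in each mutant library. The spread within homozygous hearts was wide because the denominator was below 1 TPM there.

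**Figure D2:**
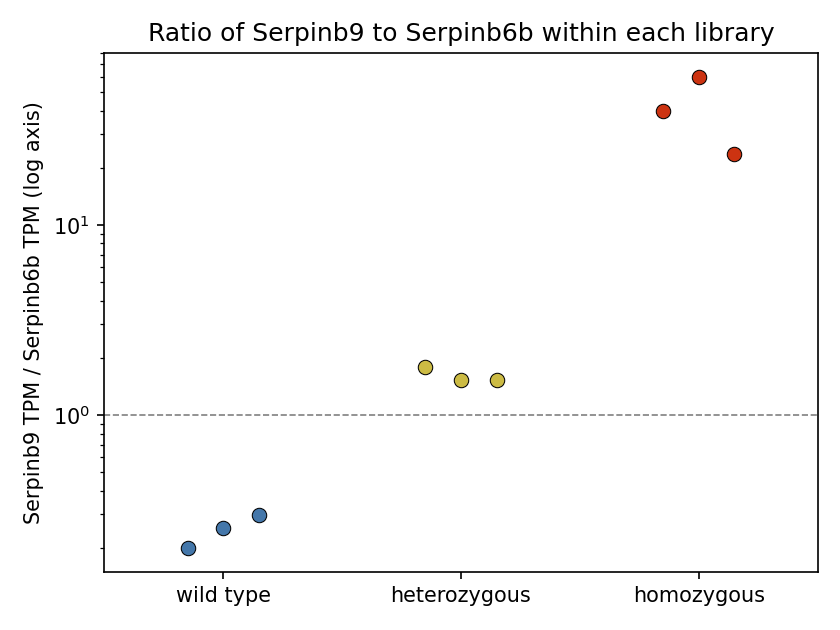
Ratio of *Serpinb9* TPM to *Serpinb6b* TPM in each of the 9 libraries (points) by genotype, on a log axis with a dashed line at equal levels. The wild-type libraries lie at 0.199 to 0.297, the heterozygous at 1.53 to 1.79 and the homozygous at 23.6 to 60.5.

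The gain of one transcript and the loss of the other did not balance. The sum of *Serpinb6b* and *Serpinb9* was 18.1 ± 1.68 TPM (SD, n = 3) in wild-type, 15.03 ± 1.33 TPM (SD, n = 3) in heterozygous and 25.6 ± 3.69 TPM (SD, n = 3) in homozygous hearts. Expressed against *Serpinb6a* in the same library, *Serpinb9* was 5.19%, 13.2% and 29.4% and *Serpinb6b* was 20.96%, 8.24% and 0.820% in the 3 genotypes in that order. *Serpinb1a* was 6.07%, 5.40% and 6.41% of *Serpinb6a*. *Serpinb6a* made up 75.6%, 78.9% and 73.2% of the summed level of the 4 genes.

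Some libraries held transcripts of other organs. Of the summed TPM of marker genes, all of which were listed, thymocyte markers reached 752.21 in homozygous replicate 3 against 1.22 to 4.06 elsewhere, airway and lung markers 2627.53 in wild-type replicate 1 and 1109.4 in heterozygous replicate 1 against 2.19 to 52.76 in the other 7, and liver markers 4143.9 in heterozygous replicate 1 against 31.87 to 169.63. Cardiomyocyte markers were high in all 9 (29078.9 to 42451.2). *Xist* was high in 5 libraries, which were all 3 heterozygous ones and replicate 1 of wild type and of homozygous. Y-linked genes were expressed in the other 4, replicates 2 and 3 of wild type and of homozygous. Sex was thus split alike in wild type and homozygous, and the heterozygous group differed from both. The log2 value of *Ctcf* itself was 0.52 for homozygous minus wild type (limma adjusted p = 0.107), and since the allele is a substitution this level does not check the genotype labels.

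The pair was chosen for its values in these same libraries, so its values in part of them are a description. The part of other organs or of sex in its changes was not tested. Without the 3 libraries with markers of other organs, homozygous minus wild type was 2.54 for *Serpinb9* and -3.25 for *Serpinb6b* on the log2(TPM + 1) scale, and with *Xist* as a covariate it was 2.49 and -3.23. Sex was split alike in wild type and homozygous, so the covariate could hardly move this comparison. In homozygous minus heterozygous, where sex differed, neither of the pair was called with that covariate. *Serpinb9* was lowest of the homozygous libraries in replicate 3, the library with thymocyte markers. Cytotoxic lymphocyte markers summed to 0.68 to 1.81 TPM in wild-type, 0.44 to 0.78 in heterozygous and 0.68 to 0.90 in the other 2 homozygous libraries, against 38.59 in replicate 3. Most of that last sum was *Gzma* (33.11 TPM), while *Gzmb* was at 0.41 and *Prf1* at 0.75 TPM in that library. No marker of that list was at 0 in all libraries. Dendritic cell markers summed to 8.26 to 10.79 TPM in 8 libraries and to 258.36 in homozygous replicate 3. In that replicate *Flt3*, *Itgax*, *Xcr1* and *Ccr7* of that list were at 0.3, 0.45, 0.0 and 1.53 TPM. Nearly all of the sum there came from the other members, so it is not read as a gain of dendritic cells. Macrophage markers overlapped between genotypes (at most 87.15, 86.18 and 95.1 TPM). Endothelial markers summed to 367.31 and 415.37 TPM in homozygous replicates 1 and 2 and to 244.94 in replicate 3, against 242.8 to 333.87 in wild-type and 289.65 to 355.88 in heterozygous libraries. Fibroblast markers summed to 1358.4, 1375.88 and 611.4 TPM in homozygous replicates 1, 2 and 3, against 881.98 to 1075.51 in wild-type and 805.52 to 1283.86 in heterozygous libraries. Both lists were thus highest in homozygous replicates 1 and 2, as *Serpinb9* was, and the part of these cells in its level was not tested. Cardiomyocyte sums of homozygous replicates 2 and 3 (34119.3 and 29078.9 TPM) were below those of all wild-type and heterozygous libraries. Neutrophil markers, the cells in which *Serpinb1a* is best known, reached 186.82 TPM in heterozygous replicate 1 against 12.14 to 45.7 elsewhere. In whole hearts, fewer cells of a type and less RNA per cell cannot be told apart.

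Genes around the 4 serpins were examined next, to see whether transcripts of the wider region moved with the pair. Of 84 other annotated genes within 1 Mb of a member of the set, 24 were listed and 15 reached the mean of 1 TPM needed for a test. None of the 15 was called in any of the 3 comparisons by limma. At an unadjusted p under 0.05 the counts were 5, 2 and 2 for homozygous minus wild type, homozygous minus heterozygous and heterozygous minus wild type, against 3426, 978 and 940 of the 13682 tested genes. Groups without overlap were found for 5, 3 and 4 of the 15, where the shares over all tested genes were 24.7%, 15.9% and 13.8%. The median neighbour changed by 0.27 between homozygous and wild type, against 0.23 over all tested genes. Without wild-type replicate 3, 4 neighbours were called in homozygous minus wild type (*Gmds*, *Ripk1*, *Slc22a23* and *Prpf4b*, all higher), in a fit that called 2170 genes in all against 46 with that library. Without homozygous replicate 3, *Gmds* alone was called.

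*Gmds*, which encodes an enzyme of GDP-fucose synthesis and lies beyond *Serpinb1a*, had the largest change of the neighbours. Wild-type libraries held 6.33, 6.78 and 5.66 TPM, heterozygous ones 9.35, 8.30 and 7.13 TPM and homozygous ones 12.82, 14.86 and 9.65 TPM, and *Gmds* was the sole tested neighbour outside the set whose 3 genotypes followed one order without overlap. Its log2 change of 0.87 (SE 0.17, adjusted p = 0.0697 in limma) missed the threshold.

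*Mylk4*, a myosin light chain kinase gene, and *Wrnip1*, a gene of DNA replication, lie between *Gmds* and *Serpinb1a*. Homozygous minus wild type was -0.20 for *Mylk4* (limma adjusted p = 0.527) and 0.27 for *Wrnip1* (limma adjusted p = 0.177). No tested gene lies between *Serpinb6b* and *Serpinb9*. On the other side of the locus, *Ripk1*, a kinase gene of cell death signalling whose first bases overlap *Serpinb6a*, changed by 0.32 (limma adjusted p = 0.234). *Nqo2* changed by 0.04 (limma adjusted p = 0.875), a value that turned negative under 4 alternatives, and 1110046J04Rik by 0.38 (limma adjusted p = 0.409). The pseudogene *Gm17084* had a log2 value of 0.83 (limma adjusted p = 0.113), but all of its 31-base words are found in *Ripk1* too, so its level is uncertain. *Slc22a23*, a solute carrier gene, stood at 0.53 (limma adjusted p = 0.132) and *Prpf4b*, a splicing kinase gene, at 0.45 (limma adjusted p = 0.143). The other 6 tested neighbours, *Bphl*, *Tubb2a*, *Tubb2b*, *Psmg4*, *Pxdc1* and *Eci2*, lay between -0.12 and 0.27 with a lowest adjusted p of 0.293 in limma.

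**Figure D3:**
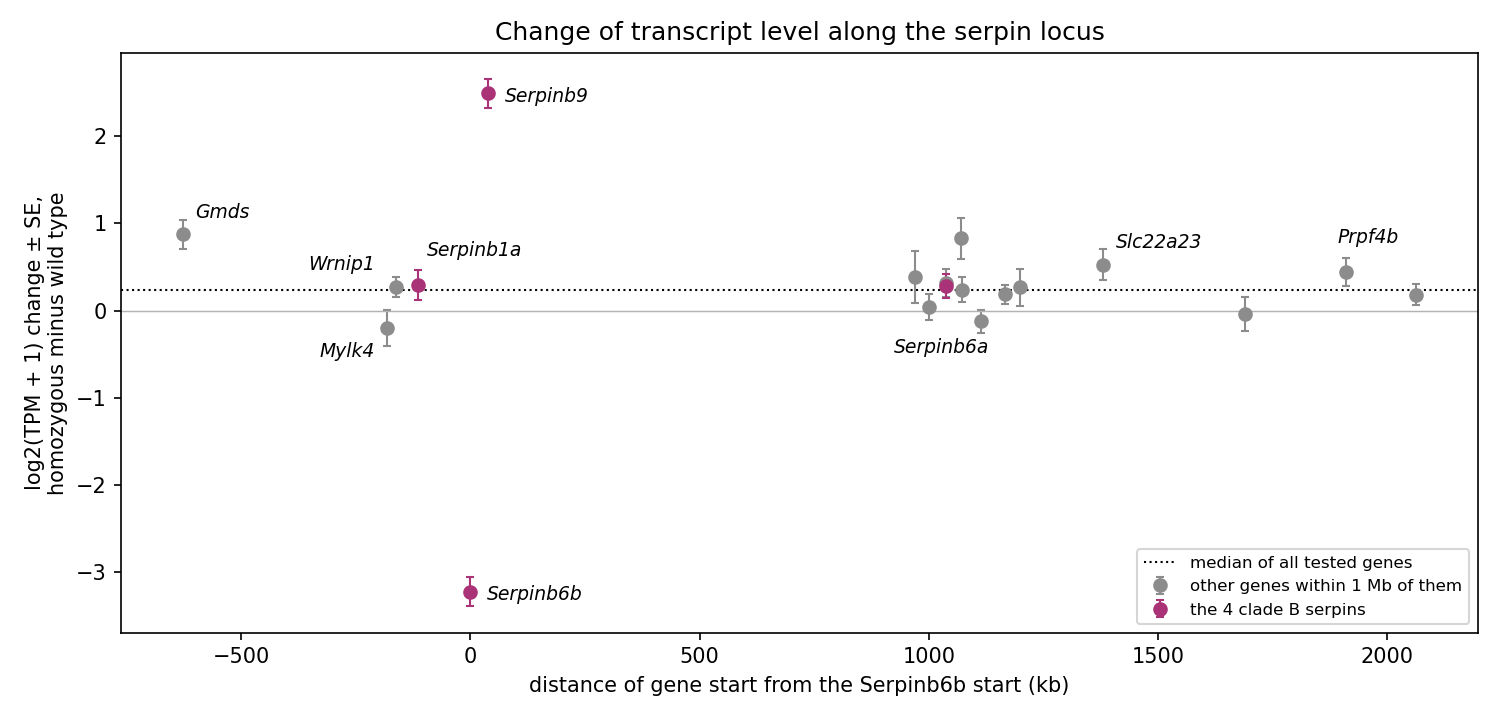
Homozygous minus wild-type change on the log2(TPM + 1) scale (points, with SE bars) of the 4 clade B serpins and the 15 other tested genes within 1 Mb, against the distance in kb of each gene's start from that of *Serpinb6b*. *Serpinb9* (2.49) and *Serpinb6b* (-3.22) stand apart from the others, which lie between -0.20 and 0.87 around the median of all tested genes at 0.23 (dotted line).

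The remaining clade B genes were at or near the limit of what was listed. Of 12 others on chromosome 13, 4 were listed and none was tested. *Serpinb9b*, the closest relative of *Serpinb9* by name (86.3% coding identity), was between 0.0 and 0.22 TPM. *Serpinb6c* (87.8% identity to *Serpinb6b*) reached 0.07 TPM in 1 library and was listed at 0 in the rest, and *Serpinb1b* and *Serpinb1c* were at most 0.09 TPM. The 31-base words that *Serpinb9* shares most are those of *Serpinb9b*, and those of *Serpinb6b* are shared most with *Serpinb6c*. On chromosome 1, 7 of 13 clade B genes were listed, and *Serpinb8*, an inhibitor of furin-like proteases, was the sole one tested. Its mean was 1.24 ± 0.312 TPM (SD, n = 3) in wild-type and 1.68 ± 0.480 TPM (SD, n = 3) in homozygous hearts, a log2 change of 0.25 (limma adjusted p = 0.502). The other 6 did not exceed 0.7 TPM.

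**Figure D4:**
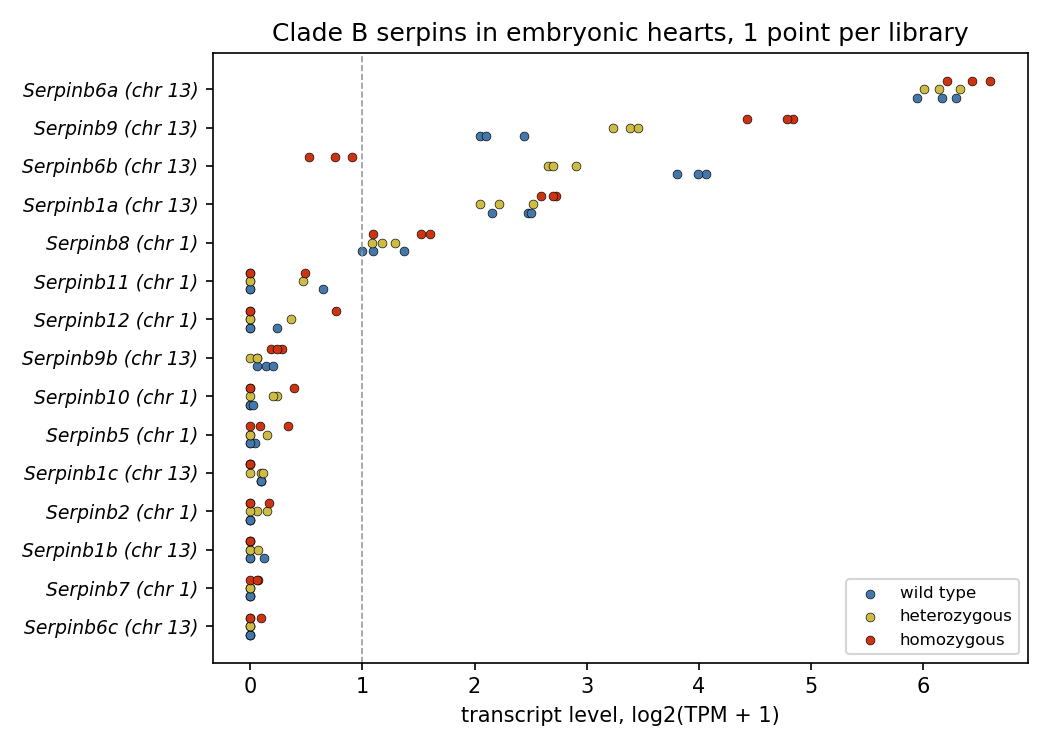
Level of the 15 listed clade B serpins on the log2(TPM + 1) scale in each library (points, coloured by genotype), ordered by mean, with the chromosome of each gene beside its symbol and a dashed line at 1 TPM. *Serpinb9* and *Serpinb6b* are the 2 genes whose genotypes separate fully, in opposite orders, and 10 genes lie below 1 TPM in all libraries.

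Serpins of all clades were counted for comparison. Of 43 others listed, 15 were tested and none was called in any of the 3 comparisons by limma, with 2, 0 and 0 at an unadjusted p under 0.05 in the order given above. Since 0.336% or fewer of all tested genes were called in a comparison, and 3426 of 13682 had an unadjusted p under 0.05 in the first, these counts do not set the serpins apart. Their median change was 0.25 for homozygous minus wild type, -0.48 for homozygous minus heterozygous and 0.51 for heterozygous minus wild type, against 0.23, 0.08 and 0.15 over all tested genes. *Serpinh1*, the collagen chaperone, was the most abundant, at 418 ± 47.7 TPM (SD, n = 3) in wild-type and 423 ± 110.5 TPM (SD, n = 3) in homozygous hearts (log2 value -0.01, limma adjusted p = 0.964), and its sign turned under 4 alternatives. *Serpine2*, a thrombin inhibitor, stood at 0.55 (limma adjusted p = 0.135) and *Serping1*, the inhibitor of complement C1, at 0.44 (limma adjusted p = 0.325). Several liver serpins, which are among the 15, were high in heterozygous replicate 1 alone, the library with liver markers, as *Serpina1e* at 210.51 TPM against at most 3.7 in the other 8. Some reached the mean of 1 TPM only through that library, as *Serpina1c* (23.84 TPM, at most 1.29 elsewhere) and *Serpinf2* (18.01 TPM, at most 0.41 elsewhere). *Serpina3g* did so through homozygous replicate 3 (14.42 TPM, at most 1.08 elsewhere). The medians that involve heterozygous hearts are therefore not read as a trait of serpins.

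Proteases that clade B serpins in general are known to inhibit, taken with perforin, ranged from near 0 to 216.94 TPM. Of 17 protease and perforin genes, 12 were listed and 5 were tested, and none was called in any comparison by limma, with 1, 1 and 0 at an unadjusted p under 0.05. Over all 13682 tested genes 46, 6 and 2 were called and 3426, 978 and 940 had an unadjusted p under 0.05. *Gzmb*, the granzyme B gene, was between 0.0 and 0.44 TPM, and the pore protein gene *Prf1* did not exceed 0.75 TPM. *Gzma* was at 33.11 TPM in homozygous replicate 3 and at most 1.24 TPM elsewhere. The neutrophil protease genes *Elane*, *Prtn3* and *Ctsg* were highest in heterozygous replicate 1, at 1.48, 5.38 and 2.13 TPM. *Cma1*, the mast cell chymase gene, ran from 5.66 to 14.9 TPM with overlapping genotypes (homozygous minus wild type 0.63, limma adjusted p = 0.234). *Ctsl*, a lysosomal protease gene, was at 94.33 to 125.91 TPM in 8 libraries and at 216.94 TPM in homozygous replicate 3 (0.50, limma adjusted p = 0.156). *Gzmm* changed by -0.16 (limma adjusted p = 0.773). The prothrombin gene *F2* was at 26.71 TPM in heterozygous replicate 1 and at most 0.5 elsewhere (0.01, limma adjusted p = 0.994). *F2* and *Gzma* reached the mean of 1 TPM only through the library in which each was high.

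Genes with a pattern most like the pair were found by the root mean square difference over the 9 libraries, on log2(TPM + 1) centred on wild type. Closest to *Serpinb9* were *Gm20186* (0.275), *Sfrp5* (0.419), which encodes a secreted Wnt antagonist, and 2510046G10Rik (0.525), where a flat line would lie at 1.59. Wild-type libraries had 1.27 to 1.83 TPM of *Sfrp5*, heterozygous ones 2.38 to 3.25 TPM and homozygous ones 6.69 to 13.66 TPM. Closest to *Serpinb6b* were *Gm12854* (0.420), *Spp1* (0.664), the osteopontin gene, and *Gm13248* (0.691), where a flat line would lie at 1.99. Wild-type libraries had 7.41 to 12.85 TPM of *Spp1*, heterozygous ones 0.74 to 1.85 TPM and homozygous ones 0.3 to 0.52 TPM, and *Gm12854* was listed at 0 in all homozygous libraries. These genes were picked for their likeness, and all 6 share their libraries with the serpins. With a pseudocount of 0.1, 2 of the 3 genes nearest *Serpinb9* and 1 of the 3 nearest *Serpinb6b* were the same.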

How the data were processed

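Hearts of 3 *Ctcf* genotypes were profiled with 3 libraries each. The authors trimmed reads with Trim Galore, aligned them to mm10 with STAR and quantified genes with RSEM, and the deposited table holds TPM per symbol and library. The annotation release is not given in the sources used here. The study's own tests used DESeq2, which needs counts and was not run. Of 24597 symbols, 26 turned into dates were left out (at most 0.0921% of a library).

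A linear model was fitted to log2(TPM + 1) of the 13682 genes whose mean over the 9 libraries reached 1 TPM, with limma (v3.58.1; eBayes with trend) in R (v4.3.3), with genotype alone. Tests were two-sided with Benjamini-Hochberg adjustment over all tested genes of a comparison, and genes under 0.05 were called. The procedure was tested on simulated data. The serpins, lists and markers were chosen with earlier results of these data known. Named genes were the 4 serpins, other clade B serpins of at least 1 TPM, and the nearest, overlapping and most changed neighbours. Also named were the 3 most abundant serpins outside clade B and proteases inhibited by clade B serpins, of at least 1 TPM. The 3 genes most like each of the pair and *Ctcf* were named too. Others were named after their values were seen. Positions came from GENCODE M21 and promoters from RefSeq GRCm38.p6, and coding identity was computed with Biopython (v1.88). A result of 1 serpin outside clade B is not reported here.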

Additional observations from a re-analysis of the deposited data

How the results depend on the processing

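Under 21 alternatives, *Serpinb9* stayed higher and *Serpinb6b* lower in homozygous than in wild-type hearts. The *Serpinb9* log2 change ran from 1.79 to 2.76 and the *Serpinb6b* change from -4.29 to -1.78, and the size depended most on the pseudocount. With pseudocounts of 0.1 and 5 *Serpinb9* was 2.76 and 1.79 and *Serpinb6b* -4.29 and -1.78 in homozygous minus wild type. With the same pseudocounts *Serpinb6b* was -2.97 and -0.92 in homozygous minus heterozygous. A pseudocount of 5 also gave 1.06 for *Serpinb9* in homozygous minus heterozygous, and -0.86 for *Serpinb6b* and 0.73 for *Serpinb9* in heterozygous minus wild type. Median-ratio scaling gave 2.27 and -3.39 and quantile normalization 2.24 and -3.43 for *Serpinb9* and *Serpinb6b* in homozygous minus wild type, and quantile normalization gave -1.36 for *Serpinb6b* in heterozygous minus wild type. Leaving out single replicates moved homozygous minus wild type only between 2.41 and 2.62 for *Serpinb9* and between -3.31 and -3.12 for *Serpinb6b*.

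*Serpinb6a* in heterozygous minus wild type turned to -0.14 with median-ratio scaling, -0.082 with quantile normalization, -0.00496 with *Xist* as covariate and -0.045 without the 3 libraries with markers of other organs, and ran from -0.072 to 0.098 when single replicates were left out. *Serpinb6a* passed in homozygous minus wild type with arrayWeights (0.43). *Serpinb1a* turned to -0.011 with quantile normalization in homozygous minus wild type and to 0.022 with arrayWeights in heterozygous minus wild type. *Nqo2* turned to -0.19 with median-ratio scaling, -0.26 with quantile normalization, and to -0.016 and -0.089 without wild-type or homozygous replicate 2, with a range of -0.089 to 0.16 when single replicates were left out. *Serpinh1* turned to 0.20 with arrayWeights, 0.15 without the 3 libraries, and 0.069 and 0.22 without wild-type or homozygous replicate 3. Of 290 homozygous minus wild-type values of 14 further genes (neighbours, serpins outside the set and *Ctcf*), 268 kept their direction and their side of the threshold, 14 passed newly and 8 changed sign. The causes were not tested.

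The background counts moved more. For homozygous minus wild type, 46 genes became 22 without a filter, 240 (39 higher, 201 lower) with median-ratio scaling, 71 (12 higher, 59 lower) with quantile normalization, 11 with the 2 groups alone, 5068 with arrayWeights, 11 without the 3 libraries and 13 to 2170 without single replicates, against 26 higher and 20 lower in the fit reported. For homozygous minus heterozygous, 6 became 2 with a pseudocount of 5 or without a filter, 13 with median-ratio scaling, 11 with quantile normalization, 0 with the 2 groups alone or with *Xist*, 43 with arrayWeights and 1 to 6 without single replicates. For heterozygous minus wild type, 2 became 1 with a pseudocount of 0.1, with a mean of at least 5 TPM or with *Xist*, 5 with median-ratio scaling, 4 with quantile normalization or arrayWeights, 0 with the 2 groups alone, 5 without the 3 libraries and 1 to 6 without single replicates. Neighbours called in homozygous minus wild type were 6 with arrayWeights and 0 to 4 without single replicates, and other serpins 2 and 0 to 1, against 0.

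Replicate numbers were shared between genotypes, but the deviations of same-numbered libraries correlated between -0.0306 and 0.359, and the numbers were not taken as pairs. With a replicate block 17, 1 and 1 genes were called in the 3 comparisons. TPM keeps no depth, so the counting error of *Serpinb6b* below 1 TPM is unknown, and litter was not given.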

Other observations

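Promoter windows with the CTCF core were compared with the rest as a description. Of 9948 tested genes with a RefSeq window, 292 held the core, and their median homozygous minus wild-type log2 change was 0.20 against 0.23 over all 9948. Called genes were 4 of the 292 (1.37%), *Rasgrp2* higher and *Def8*, *Gstm6* and *Serpinb6b* lower, against 0.352% over all 9948. *Serpinb6b* was chosen by its change, and the motif was chosen after its promoter had been read. Of the same 9948 genes, 301 held the interferon-stimulated element, with a median change of 0.22 over the 301. In the same comparison 2 of them (0.664%) were called, *Serpinb9* higher and *Spp1* lower. *Serpinb9* too was chosen by its change, and this motif after its promoter had been read. The TATA box was held by 790 of the 9948, with a median change of 0.21, 1 called higher and 3 called lower (0.506%). Nothing is read from the shares of called genes.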
